A study of Sus scrofa with 10 samples.

Results

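The 10 genes described here mark cells that surround cardiomyocytes, and they were measured in the nuclear RNA of sorted minipig (Sus scrofa) heart cells. They were found by symbol among 35670 gene identifiers, and each symbol matched 1 identifier. Of the 10 genes, 4 mark fibroblasts (DCN, LUM, PDGFRA and TCF21) and 6 mark mural cells (PDGFRB, RGS5, NOTCH3, ACTA2, MYH11 and ITGA8). All 10 passed the filter on low counts, so all were among the 17251 genes tested. The libraries came from cells labelled as cardiomyocytes of wild-type hearts. A control group of 5 libraries (1 to 5) had received phosphate-buffered saline. A second group of 2 libraries (6 and 7) had received deoxycorticosterone acetate (DOCA), a corticosteroid that acts on the mineralocorticoid receptor. The third group of 3 libraries (8 to 10) had received DOCA together with JK07, which the series title describes as an agonist of the neuregulin receptor ERBB4. The sources used here give no breed, age, chamber, dose or time. They do not say that each library came from its own animal, so the p-values cover only the variation among these libraries, part of which may be technical.

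Fibroblasts of the heart lie between the muscle cells and secrete the collagen-rich matrix, and they depend on platelet-derived growth factor signals through PDGFRA. Mural cells wrap the vessels: pericytes sit on capillaries and smooth muscle cells on arterioles and arteries. Their recruitment and maintenance depend on PDGFRB and on NOTCH3. A cardiomyocyte is not expected to make these transcripts in quantity, so in sorted nuclei their level is read as a measure of purity. In bulk RNA, fewer cells of a type and less RNA per cell cannot be told apart.

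The summed TPM of 20 cardiomyocyte genes stood far above that of the 10 members in every library, though not every cardiomyocyte gene stood above every member. Of the 10 members, 9 were above 0 in all 10 libraries. The atrial myosin heavy chain gene MYH6 stood at 575 ± 38.0 TPM (a level per length, scaled to the same total in each library; SD, n = 5) in the controls and the troponin T gene TNNT2 at 357 ± 28.3. DCN, the highest member, stood at 34.2 ± 13 TPM (SD, n = 5), and the other 9 members had control means of 1.91 to 7.52 TPM. Between 77.6% and 90.8% of the counts of a library lay on ribosomal RNA scaffolds, which lowers every TPM value. Total estimated counts ran from 28.1 M to 106 M per library. Outside the scaffolds and the mitochondrial genome, libraries 6 and 7 held the fewest counts, 6.87 and 3.30 M, against 8.67 to 13.9 M in the other 8. The part of that depth in the DOCA values was not tested.

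In the controls the order of TPM means was DCN, PDGFRA, RGS5, PDGFRB, MYH11, LUM, TCF21, ACTA2, NOTCH3 and ITGA8. DCN exceeded PDGFRA in 5 of 5 controls with no overlap of their ranges. All 8 later neighbour pairs overlapped, so this order below DCN is not resolved by the spread between libraries. The top rank of DCN also rested on how its level was expressed. DCN (decorin, ENSSSCG00000000915) encodes a small leucine-rich proteoglycan that binds collagen fibrils. Its TPM was 11.8 times its read coverage put on the same scale, whereas the other 9 members lay within 1.00 to 1.49 times. The ratio followed the gene model: the count and coverage of DCN gave a model of 18.7 kb at 75 bases a read, the default of the StringTie counting script, whereas its TPM gave 1.58 kb. By coverage DCN stood at 2.89 ± 1.11 (SD, n = 5) and ranked eighth in the controls, behind PDGFRA at 6.36 ± 2.07. Over the 8988 genes above 0 in every library, 1.99% had a ratio above 10. Comparisons of DCN between libraries hold in either measure, since its ratio was nearly constant, but its level against another gene does not.

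**Figure D1:**
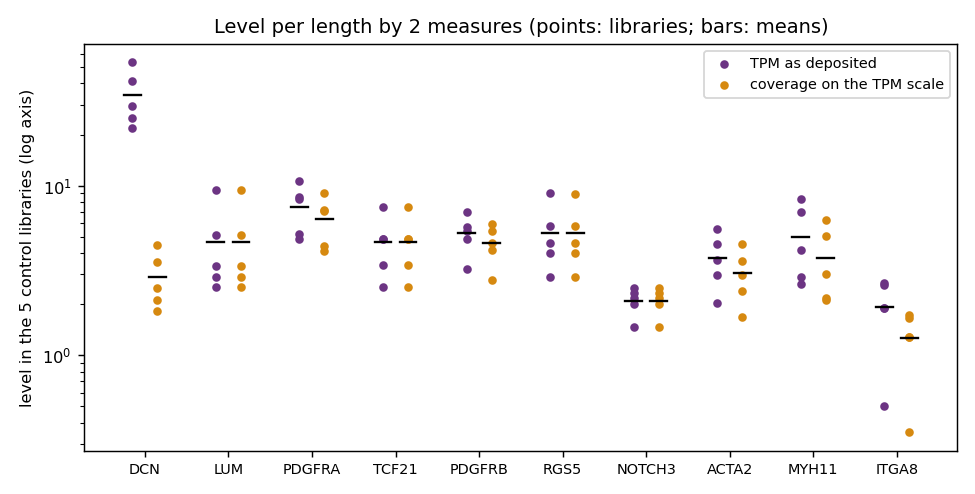
Level of each marker gene in the 5 control libraries on a log axis, as the deposited TPM and as read coverage put on the TPM scale of the same library. Points are libraries and bars are means; DCN moves from 34.2 to 2.89 between the measures, while LUM, TCF21, RGS5 and NOTCH3 hardly move.

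The fibroblast members come first. DCN lies on chromosome 5 from 91682658 to 91714235 (Sscrofa11.1, plus strand). It stood at 42.6, 25.2, 34.0, 24.0 and 55.1 CPM (counts as a share of the scaled library total) in control libraries 1 to 5. DOCA libraries 6 and 7 had 12.1 and 29.3 CPM, and JK07 libraries 8 to 10 had 27.6, 39.2 and 22.5 CPM. Library 6 was the lowest of all 10, but library 7 lay within the control range, so the groups overlapped. In edgeR DCN had a log2 fold change of -0.81 (SE 0.45, adjusted p = 0.227) for DOCA against control. For DOCA plus JK07 against DOCA it was 0.52 (SE 0.47, adjusted p = 0.481).

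LUM (lumican) belongs to the same proteoglycan family and lies 34.65 kb after DCN on the same strand (chromosome 5, 91748885 to 91757598). Its controls stood at 10.3, 6.69, 6.54, 5.52 and 19.4 CPM. The DOCA libraries had 2.20 and 3.78 CPM, and the JK07 libraries 11, 12 and 2.6 CPM. Both DOCA libraries lay below every control, while JK07 library 10 lay between them. The edgeR fold change for DOCA against control was -1.70 on the log2 scale (SE 0.72, adjusted p = 0.123) and did not pass. DESeq2 gave -1.62 with adjusted p = 0.0475, and limma on log2(TPM + 1) gave -1.36 with adjusted p = 0.0226, so the call depended on the tool. For DOCA plus JK07 against DOCA edgeR gave 1.52 (SE 0.75, adjusted p = 0.211). The next members of that gene cluster, KERA and EPYC, known from cornea and cartilage, were listed at 0 in all 10 libraries.

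PDGFRA (chromosome 8, 40967493 to 41021441), the receptor that defines the fibroblast lineage, was steadier. The controls had 44.3, 19.8, 38.9, 23.3 and 35.9 CPM. The DOCA libraries had 21.1 and 25.0 CPM, and the JK07 libraries 21.3, 29.6 and 17.8 CPM. Both DOCA libraries lay in the lower part of the control range, and JK07 library 10 lay below every control. No comparison passed: the log2 fold change was -0.49 (SE 0.34, adjusted p = 0.321) for DOCA and -0.50 (SE 0.30, adjusted p = 1) for DOCA plus JK07, each against control in edgeR.

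TCF21 (chromosome 1, 29975280 to 29978255) encodes a transcription factor of epicardium-derived fibroblasts and of the epicardium itself. It stood at 4.01, 2.05, 4.47, 3.01 and 6.28 CPM in the controls and at 3.32, 7.38 and 3.04 CPM in the JK07 libraries. The DOCA libraries parted, with 3.12 CPM in library 6 and 11.07 CPM in library 7, the highest of all 10. The log2 fold change for DOCA against control was 0.84 (SE 0.56, adjusted p = 0.304). Library 7 was also highest in genes of the mesothelial lining: KRT19, a keratin, stood there at 73.6 CPM against 0.357 to 10.8 CPM in the other 9 libraries, and WT1, an epicardial transcription factor, at 15.6 against 1.16 to 6.0 CPM. Their part in the TCF21 value of that library was not tested.

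Among the mural members, PDGFRB (chromosome 2, 151155756 to 151192647), the receptor of pericytes, was not lower in the DOCA group. Its controls stood at 20.5, 11.4, 28.3, 21.0 and 17.7 CPM. The DOCA libraries had 37.3 and 23.7 CPM and the JK07 libraries 21.0, 33.3 and 21.4 CPM. All 5 treated libraries lay above the control mean of 19.8 CPM, but the groups overlapped. In TPM this did not hold: library 6, at 5.11 TPM, lay just below the control mean of 5.22 TPM. On log2(TPM + 1) the log2 fold change for DOCA against control was 0.08. The edgeR log2 fold change was 0.63 (SE 0.34, adjusted p = 0.216) for DOCA and 0.35 (SE 0.30, adjusted p = 1) for DOCA plus JK07, each against control. Its neighbour CSF1R, the macrophage receptor gene, lies 8.12 kb away on the same strand and ranged from 7.25 to 28.7 CPM, with library 5 highest.

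RGS5 (chromosome 4, 87286953 to 87342088) encodes a regulator of G protein signalling that marks pericytes. It stood at 19.2, 12.2, 9.60, 10.6 and 6.23 CPM in the controls, at 3.07 and 2.31 CPM in the DOCA libraries, and at 8.91, 9.41 and 7.11 CPM in the JK07 libraries. Both DOCA libraries lay below all 8 others. RGS5 fell by 2.10 on the log2 scale in DOCA against control (edgeR, SE 0.42, adjusted p = 0.00579), and it was higher by 1.65 in DOCA plus JK07 than in DOCA (SE 0.43, adjusted p = 0.0283). The second call was lost without control library 4 (adjusted p = 0.0526), DOCA library 6 (0.0556) or 7 (0.109), or JK07 library 8 (0.0782) or 9 (0.0702). With quality weights per library, limma gave a log2 fold change of -1.93 (adjusted p = 0.199) for the first comparison and 1.67 (adjusted p = 0.330) for the second, so the calls were lost at folds of similar size. The coverage of RGS5 was 2.72 and 1.57 reads per base in libraries 6 and 7, close to the minimum of 1 under which most genes are listed at 0.

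NOTCH3 (chromosome 2, 62364501 to 62402344) encodes the mural Notch receptor, and its values overlapped between all 3 groups. It stood at 13, 7.55, 12.8, 13.2 and 10.6 CPM in the controls and at 10.1 and 18.7 CPM in the DOCA libraries. The JK07 libraries had 12.1, 31.0 and 13.4 CPM, so library 9 stood far above the others. Neither DOCA (log2 fold change 0.33, SE 0.41, adjusted p = 0.574) nor DOCA plus JK07 (0.72, SE 0.35, adjusted p = 1) passed against control in edgeR. The sign for DOCA was not stable: without library 7 the value was -0.18, and on log2(TPM + 1) it was -0.11.

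ACTA2, the smooth muscle alpha-actin gene that activated fibroblasts also express (chromosome 14, 100867733 to 100886713), was low in CPM throughout. Per length, its control mean of 3.74 ± 1.36 TPM (SD, n = 5) lay within the 1.91 to 7.52 TPM of the members below DCN. The controls had 6.10, 3.22, 4.48, 2.42 and 4.98 CPM. The DOCA libraries had 1.46 and 4.21 CPM and the JK07 libraries 3.61, 4.58 and 3.10 CPM. Only library 6 lay below the control range. The log2 fold change was -0.58 (SE 0.47, adjusted p = 0.384) for DOCA and -0.17 (SE 0.40, adjusted p = 1) for DOCA plus JK07, each against control in edgeR.

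MYH11, the smooth muscle myosin heavy chain gene (chromosome 3, 7002735 to 7143095), varied widely within groups. It stood at 28.9, 10.7, 38.3, 18.5 and 12.1 CPM in the controls, at 5.66 and 13.4 CPM in the DOCA libraries, and at 11.07, 10.8 and 31.7 CPM in the JK07 libraries. In library 10 MYH11 was thus near the top of the range while ACTA2 was not: MYH11 had 10.2 times the estimated counts of ACTA2 there, against 2.36 to 8.55 times elsewhere. MYH11 did not pass for DOCA against control (log2 fold change -1.19, SE 0.67, adjusted p = 0.237). It overlaps NDE1 on the opposite strand over 17.16 kb, and no source used here gives the strand setting of the counting, so its reads are uncertain. NDE1 ranged from 5.65 to 10.8 CPM and was not high in library 3, where MYH11 was highest.

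ITGA8, the integrin alpha 8 gene of mural and mesenchymal cells (chromosome 10, 46132913 to 46303343), was listed at 0 in both DOCA libraries. The controls had 2.04, 7.61, 12.2, 8.37 and 10.7 CPM and the JK07 libraries 9.34, 7.46 and 4.95 CPM. A coverage of 1 corresponds to 3.21 CPM of ITGA8 in library 6 and to 4.20 CPM in library 7. The 3 JK07 libraries and 4 of 5 controls lay above both levels, and control library 1 lay below both. The edgeR call was passed in both comparisons with DOCA (adjusted p = 0.000454 against control and 0.000575 for DOCA plus JK07 against DOCA), but no fold was read from the 0 values. With quality weights per library limma gave adjusted p = 0.492 and 0.540.

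**Figure D2:**
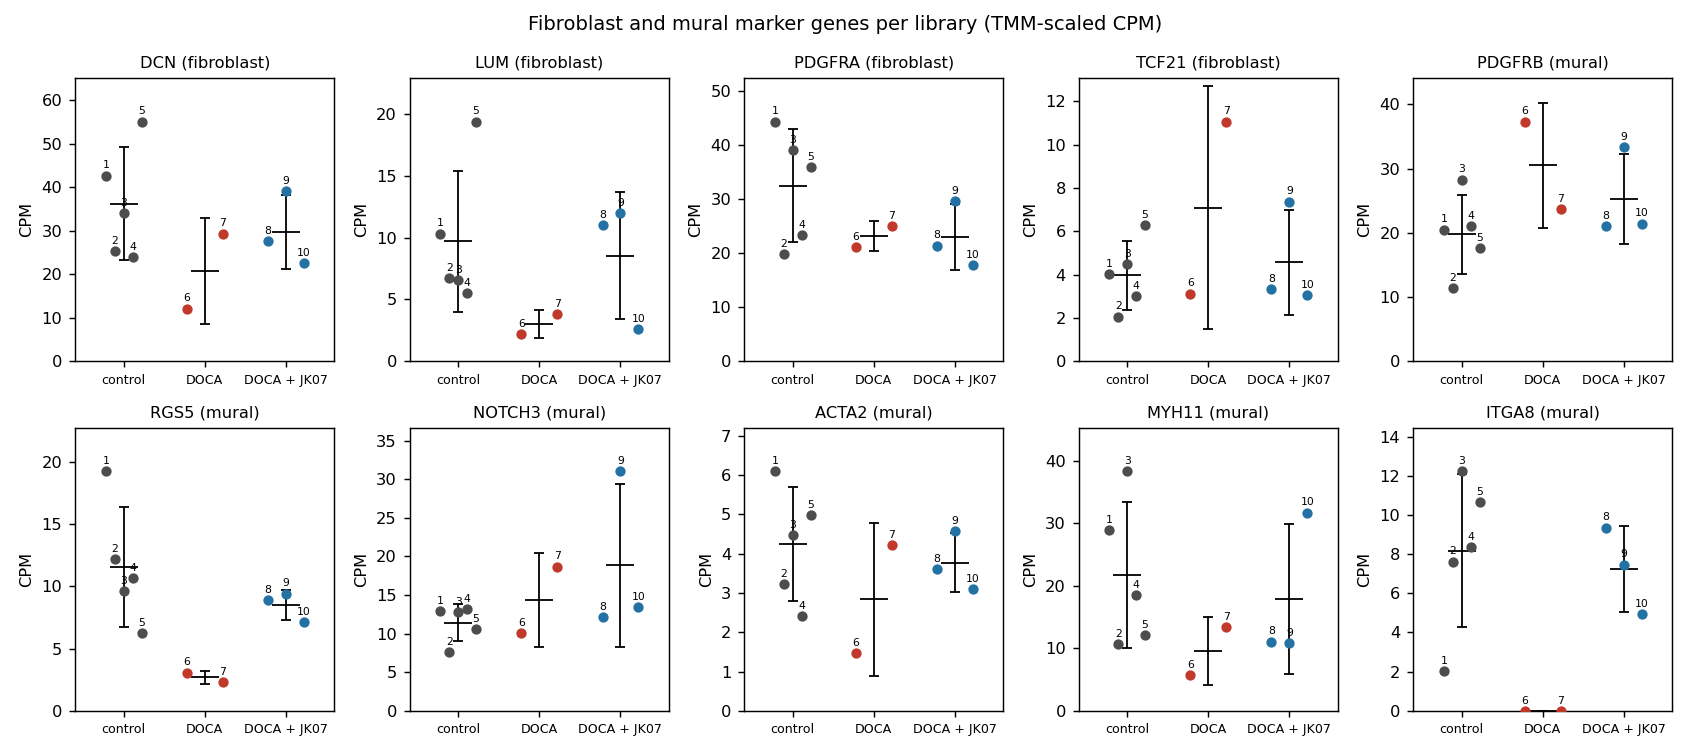
CPM of each marker gene in each library (vertical axes, numbers beside points are library numbers), by group, with the group mean and SD as bars. RGS5 and ITGA8 have both DOCA libraries below all 8 others, and LUM has both below every control; the other genes overlap between groups.

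Counted together, 0 of 4 fibroblast and 2 of 6 mural members were lower for DOCA against control, and 0 members were higher. Over all genes tested 25.5% were called in that comparison, 19.7% lower and 5.73% higher, so 2 of 10 lower lies at the background. LUM, RGS5 and ITGA8 had an unadjusted p under 0.05, as did 36.3% of all genes. The same 3 of 10 members had both DOCA libraries below every control, against 27.6% of all genes, and 0 had both above, against 10.2%. The median log2 fold change was -0.65 for the fibroblast and -0.89 for the mural members, against -0.63 for all genes tested. For DOCA plus JK07 against DOCA, 0 of 4 fibroblast and 2 of 6 mural members were higher, with a background of 17% called, 14.7% higher and 2.25% lower. RGS5 and ITGA8 were also the 2 members with an unadjusted p under 0.05, against 30.3% of all genes. They were the 2 whose JK07 libraries all lay above DOCA, against 30.3%, and 0 members lay below, against 9.82%. Both comparisons share the 2 DOCA libraries. For DOCA plus JK07 against control, edgeR called 0 members, 0% of all genes, and the medians were -0.23 for fibroblast and -0.17 for mural members. There 803 genes (4.65%) had an unadjusted p under 0.05, none of them a member, and DESeq2 called 116 genes, also none of them a member. No member had JK07 libraries all above the controls, against 3.37% of all genes, or all below, against 2.45%.

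**Figure D3:**
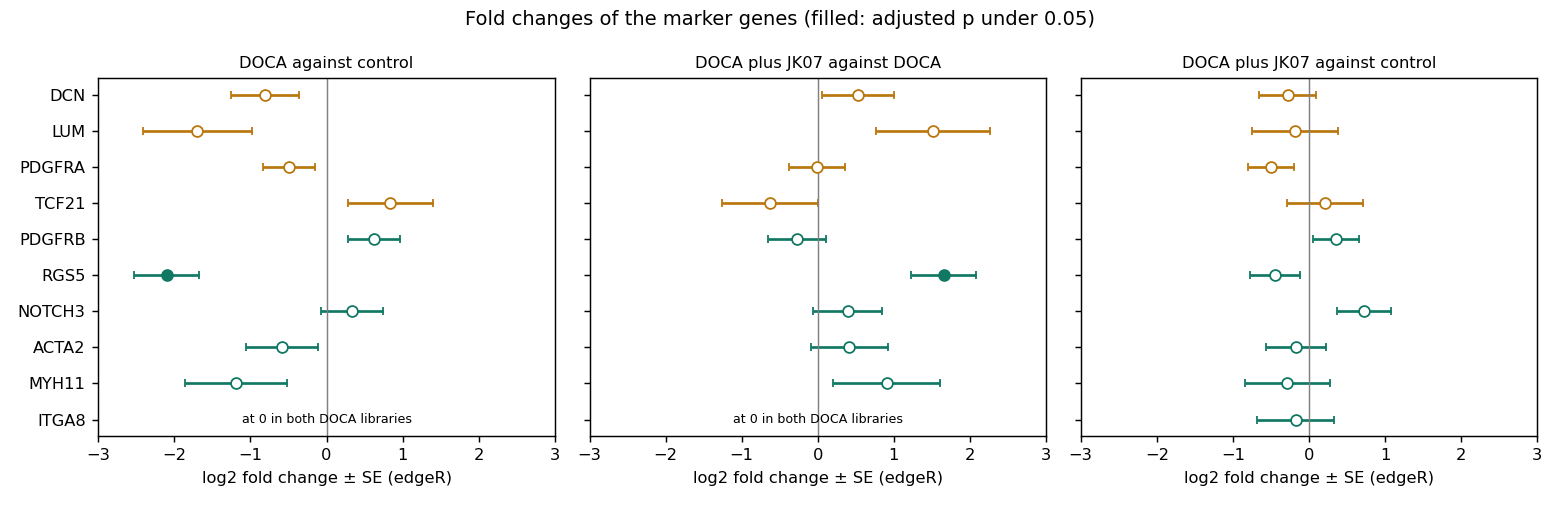
Log2 fold change ± SE from edgeR for each marker gene (rows; orange fibroblast, green mural) in the 3 comparisons; filled circles passed an adjusted p of 0.05. RGS5 is the filled point in both comparisons with DOCA, ITGA8 was listed at 0 in both DOCA libraries and is not drawn there, and no gene is filled for DOCA plus JK07 against control.

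Read as purity, the summed TPM of the 4 fibroblast members was set against that of 20 cardiomyocyte genes in the same library, which removes the ribosomal share. Per 1000 TPM of cardiomyocyte genes, the fibroblast members had 26.0, 11.3, 19.0, 13.7 and 37.3 TPM in the controls. They had 7.37 and 26.0 TPM in the DOCA libraries and 16.7, 24.3 and 7.84 TPM in the JK07 libraries. The controls alone thus spanned more than the difference between any group means, which were 21.4, 16.7 and 16.3. The mean log2 difference was -0.50 for DOCA and -0.41 for DOCA plus JK07 against control, with SDs between libraries of 0.85 and 0.74. Without library 6 the DOCA difference was 0.41, and without library 7 it was -1.41, so its direction rested on 1 library. DCN makes up much of this sum in TPM. With coverage in place of TPM for members and cardiomyocyte genes, the values were 11.6, 5.53, 9.15, 6.82 and 17.5 in the controls, 4.51 and 14.1 in DOCA, and 9.61, 13.1 and 3.45 in JK07. The level was thus lower by coverage, and the groups overlapped in the same way. With the calcium channel gene RYR2 alone as denominator, the log2 difference of DOCA plus JK07 against control was -1.30 in place of -0.41. RYR2 itself averaged 61.0 ± 21.6 TPM in control, 32.3 ± 0.706 in DOCA and 148 ± 53.6 in DOCA plus JK07 (SD). The undivided fibroblast sum averaged 51.0, 27.5 and 47.5 TPM in the same groups.

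For the 6 mural members the same measure gave 12.6, 5.69, 11.5, 8.52 and 9.34 TPM in the controls, 5.57 and 9.53 in the DOCA libraries, and 8.26, 11.4 and 5.91 in the JK07 libraries. By this measure the 3 groups overlapped here as well. Undivided, the mural sum did not overlap, with 8.12 and 16.3 TPM in the DOCA libraries. It ran from 18.0 to 30.2 TPM in the controls and from 23.5 to 33.3 TPM in JK07. As a share of the TPM outside the ribosomal scaffolds and the mitochondrial genome, library 7 lay within the control range. The mean log2 difference of the divided mural sum was -0.34 for DOCA and -0.16 for DOCA plus JK07 against control, with SDs of 0.47 and 0.46. Without library 6 the DOCA value was 0.05, without library 7 it was -0.72, and without PDGFRB it was -1.0. With RYR2 alone as denominator the JK07 value was -1.05. The cardiomyocyte genes themselves summed to 5631.5 TPM in library 10, against 1457 to 3156 in the other 9, and that library had low ratios for both cell types.

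Other genes of the same cells were summed in the same way, and a sum depends on how many genes it holds and how abundant they are. The 30 other fibroblast genes found, of 32 listed, summed to 386 ± 215 TPM per 1000 cardiomyocyte TPM in the controls (SD, n = 5), with a range of 183 to 747. Much of that was collagen and cytoskeletal RNA: COL3A1, a fibrillar collagen chain, stood at 145 ± 96.8 TPM and GSN, gelsolin, which other cells also express, at 225 ± 54.6 TPM. In the DOCA libraries the sum was 211 and 907 per 1000, so library 7 lay above every control and library 6 near the lowest. In the JK07 group it ran from 150 to 532. The groups overlapped by these genes too. The 20 other smooth muscle genes, some of which heart muscle also expresses, did separate: they summed to 273 and 277 in DOCA and 221.4 to 281 in JK07, against 185 to 221.2 in the controls. Undivided they did not rise in DOCA, with 398 and 473 TPM against 467 to 583 TPM in the controls and 590 to 1247 TPM in JK07. The 15 genes of activated fibroblasts summed to 40.9 and 47.2 in DOCA, above the 7.89 to 35.7 of the controls, whereas the JK07 libraries ranged from 9.51 to 45.6. Undivided, their sums overlapped, with 59.6 and 80.5 TPM in DOCA against 24.9 to 75.2 TPM in the controls. Most of the DOCA sum was CCN2, at 52.2 ± 11.6 TPM (SD, n = 2) against 22.6 ± 16.4 TPM in the controls (SD, n = 5). Of the 13 genes of this list that were tested, 8 had a log2 fold change below 0 for DOCA against control. These lists were singled out after their values were seen, and no test was made.

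**Figure D4:**
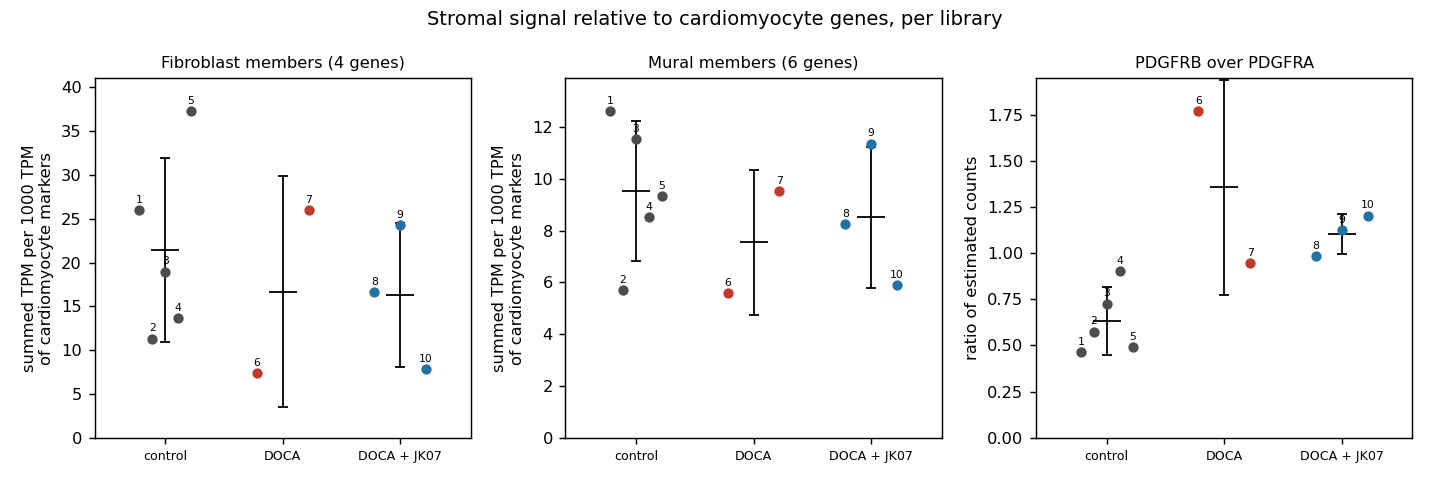
Summed TPM of the fibroblast members and of the mural members per 1000 TPM of cardiomyocyte genes, and the ratio of PDGFRB to PDGFRA counts, in each library (numbers), with group mean and SD. Divided in this way, the sums overlap between the 3 groups. The ratio of PDGFRB to PDGFRA is 0.945 to 1.77 in the 5 treated libraries and 0.463 to 0.902 in the controls.

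A ratio of 2 genes within a library does not depend on library scaling. PDGFRB had 0.463, 0.575, 0.727, 0.902 and 0.492 times the estimated counts of PDGFRA in the controls. It had 1.77 and 0.945 times in the DOCA libraries and 0.986, 1.12 and 1.20 times in the JK07 libraries. All 5 libraries with DOCA, with or without JK07, lay above all 5 controls, though library 7 and library 4 were close. The ratio of RGS5 to PDGFRB was 0.0822 and 0.0976 in the DOCA libraries, 0.339 to 1.07 in the controls and 0.282 to 0.424 in the JK07 libraries, so both DOCA libraries lay below the other 8. The pairs were chosen after their values were seen, and no test was made.

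The markers did not rise and fall as 2 blocks. Over the 8 libraries that are not DOCA, Pearson's r of log2(CPM + 1) had a median of 0.72 over the 6 fibroblast pairs (0.57 to 0.84), and of 0.08 over the 15 mural pairs (-0.67 to 0.86). Over all 10 libraries the medians were 0.54 and 0.31. These points share libraries and depth and are given as a description. NOTCH3 went with PDGFRB (r = 0.86 over the 8 libraries), while ITGA8 and RGS5 went apart (-0.67). ACTA2 followed DCN (0.87) and PDGFRA (0.85) more closely than MYH11 (0.13). Within the controls MYH11 and LUM were the most variable members, with coefficients of variation of 54.1% and 59.0%, and NOTCH3 the least, with 21.0%.

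Among all named genes tested, the closest in profile over 10 libraries were RAB5C (r = 0.99), YWHAQ (0.96) and VCAN (0.95) for DCN, and PDCD4 (0.95), SLC66A3 (0.95) and SLC18B1 (0.94) for LUM. For PDGFRA they were RRP36 (0.91), CHI3L1 and NTRK2 (0.89 each), and for TCF21 LTBP4 (0.98), ADGRA2 and MEX3D (0.96 each). The closest to PDGFRB were RENBP, HM13 (0.92 each) and PDPK1 (0.91). For RGS5 they were PCF11 (0.97), GPD2 and DENND4A (0.96 each), and for NOTCH3 HIP1R (0.93), EFNA5 and KIAA1755 (0.92 each). ACTA2 was closest to DNAJC25 (0.94), DCN and LIMA1 (0.93 each), MYH11 to ADGRF5, MAML1 (0.91 each) and COIL (0.90), and ITGA8 to AP3S1, AKAP7 and KRCC1 (0.98 each). These are the highest values among the named genes of the 17251 tested, over only 10 libraries, so a high r alone does not tie a gene to a cell type. VCAN, a matrix proteoglycan, and LTBP4, which binds latent TGF-beta, are stromal genes of high level here, with means of 81.0 and 153 CPM. Others were low, such as CHI3L1 with a mean of 0.172 CPM.

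Other pericyte genes gave values on both sides, as the members did. Of 17 tested, 6 fell (35.3%, against 19.7% of all genes) and 1 rose for DOCA against control, with a median log2 fold change of -0.61, near that of all genes. ABCC9, the sulfonylurea receptor of the pericyte potassium channel, which cardiomyocytes also express, had a control mean of 38.6 ± 12.5 CPM (SD, n = 5). In DOCA it fell to 6.96 ± 3.36 CPM (SD, n = 2), a log2 fold change of -2.47 (edgeR, SE 0.43, adjusted p = 0.00248). In the JK07 libraries it stood at 40.4 ± 8.25 CPM (SD, n = 3), higher than in DOCA (2.54, SE 0.45, adjusted p = 0.00312). GUCY1A1 and GUCY1B1, the subunits of the nitric oxide receptor, and the angiotensin receptor gene AGTR1 had 2.16 to 2.26 CPM in control and 1.71 to 1.96 CPM in JK07 on average, and neither DOCA library listed any of them above 0. Their control means were 0.635 to 0.965 TPM, where a coverage of 1 stood for a median of 0.613 TPM in library 7. Of the 20 listed, RGS4 and STEAP4 were at 0 in all 5 controls.

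Of 18 other smooth muscle genes 4 fell and 1 rose for DOCA against control, and 22.2% lower is near the 19.7% of all genes. PLN, phospholamban, which is far better known from cardiomyocytes, fell by 3.37 on the log2 scale (edgeR, SE 0.45, adjusted p = 0.00047), SYNPO2, an actin-binding protein, by 1.15 (SE 0.22, adjusted p = 0.00399) and MYLK, myosin light chain kinase, by 1.80 (SE 0.43, adjusted p = 0.0146). All 3 were higher in DOCA plus JK07 than in DOCA, PLN by 2.64 (SE 0.45, adjusted p = 0.00243). Levels within the list varied widely in the controls. TAGLN stood at 9.74 ± 5.93 TPM, CNN1 at 3.23 ± 0.821 TPM and SMTN at 10.3 ± 1.17 TPM (SD, n = 5), whereas ACTG2 and KCNMB1 were listed at 0. Others stood higher, with CALD1 at 24.4 ± 5.28, MYL9 at 21.7 ± 2.64, TPM1 at 93.9 ± 7.79, TPM2 at 87.6 ± 31.5 and DES at 144 ± 20.1 TPM. These genes were chosen after their values were seen.

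Of 30 other fibroblast genes tested 4 fell (13.3%, against 19.7% of all genes) and 0 rose for DOCA against control, with a median of 0.03. The neighbouring lipid transporter genes ABCA8 (from 37.7 ± 7.52 to 7.41 ± 3.24 CPM, log2 fold change -2.35, SE 0.39, edgeR adjusted p = 0.00184) and ABCA6 (-2.31, SE 0.53, adjusted p = 0.0121) were 2 of them. Both were higher in DOCA plus JK07 than in DOCA, ABCA8 by 2.34 (SE 0.40, adjusted p = 0.00271) and ABCA6 by 2.25 (SE 0.55, adjusted p = 0.0209). Of 13 tested genes of activated fibroblasts 3 fell, or 23.1%, and 1 rose. POSTN, periostin, stood at 11.9 ± 4.21 CPM in control and 2.54 ± 0.567 CPM in DOCA (-2.22, SE 0.67, adjusted p = 0.0409), and AEBP1, a collagen-binding protein, rose from 16.3 ± 4.93 to 48.0 ± 25.8 CPM (1.56, SE 0.40, adjusted p = 0.0212). CILP and FAP were listed at 0 in both DOCA libraries. Their control means were 0.461 ± 0.108 and 0.978 ± 0.426 TPM (SD, n = 5). A coverage of 1 stood for a median of 0.613 TPM in library 7, so the 0 of CILP there cannot be told from its control level.

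Around the members' pathways, 0 of 4 platelet-derived growth factor ligand genes passed in any comparison. PDGFD, a ligand of PDGFRB, stood at 6.58 ± 1.14 CPM in control, 3.53 ± 0.0698 in DOCA and 4.81 ± 1.72 in DOCA plus JK07 (edgeR adjusted p = 0.0613 for DOCA against control). Of 19 Notch pathway genes 3 rose and 2 fell for DOCA against control, where 5.73% of all genes rose and 19.7% fell. NOTCH2 rose from 49.1 ± 9.75 to 103 ± 9.40 CPM (1.07, SE 0.21, edgeR adjusted p = 0.00554) and the ligand gene JAG2 from 2.36 ± 0.347 to 6.87 ± 3.96 CPM (1.54, SE 0.32, adjusted p = 0.00734), while RBPJ, the transcription factor of the pathway, fell by 1.59 (SE 0.36, adjusted p = 0.0118). Of 9 tested relatives of DCN and LUM, small leucine-rich proteoglycans, 2 fell: OMD and ASPN were listed at 0 in both DOCA libraries. In DOCA plus JK07 against control 0 genes of any of these lists passed in edgeR.

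Of the 20 cardiomyocyte genes, all above 0 in every library, 1 rose and 3 fell for DOCA against control, with a median log2 fold change of -0.31. MYOZ2, a sarcomere protein, fell by 2.31 (edgeR, SE 0.33, adjusted p = 0.000729) and RBM20, a splicing factor, rose by 1.32 (SE 0.29, adjusted p = 0.00857). Markers of other cells moved in both directions beside the members. Of 17 endothelial genes 2 rose and 3 fell (17.6%, near the background) for DOCA against control, and CALCRL, ADGRL4 and EMCN were listed at 0 in both DOCA libraries. Their summed level was 19.8 to 54.2 TPM per 1000 cardiomyocyte TPM in the controls, 27.0 and 55.9 in DOCA and 22.8 to 35.5 in DOCA plus JK07. Of 18 macrophage genes 0 rose and 2 fell, with sums of 19.3 to 73.5 in the controls, 24.9 and 76.7 in DOCA, and 16.5 to 34.0 in DOCA plus JK07. Of 6 tested Schwann cell, adipocyte and mesothelial genes 0 passed. The 11 genes of that list found in the files gave sums of 1.62 to 7.41 in the controls, 1.33 and 51.1 in DOCA and 0.488 to 5.27 in DOCA plus JK07, with ADIPOQ and LEP at 0 in all libraries. Library 7 thus exceeded every control in all 3 sums and library 6 lay at or below the middle of their range. The endothelial and macrophage excesses were small and did not hold undivided. There library 7 had 95.3 and 131 TPM, against up to 114 and 155 TPM in the controls. The part of these cell types in the fall of RGS5 and ITGA8, which libraries 6 and 7 shared, was not tested.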

How the data were processed

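Nuclear RNA of sorted cardiomyocytes was sequenced in 10 libraries, grouped by the titles given to GEO. The submitters' processing notes name Sscrofa11.1 with StringTie, SAMtools and edgeR, and give no versions or aligner. Per the file headers, the authors deposited coverage signal and TPM for each gene and library. The authors also deposited estimated counts without a gene column, and these whole numbers were matched to the sorted identifiers (the 0 values of counts and coverage coincided for 99.998% of entries, and for 62.6% after a shift of 1 line). Most genes under a coverage of 1 are listed at 0 (3.96% of coverage values above 0 lay under 1).

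Genes were tested in edgeR 4.0.16 (R 4.3.3) by quasi-likelihood F tests, after TMM scaling and filterByExpr, in 1 model of group over the 10 libraries, with Benjamini-Hochberg adjustment over 17251 genes (threshold 0.05). SE is the log2 fold change over the square root of F. CPM uses TMM-scaled total counts. The TMM factor was 0.511 in library 6 and 0.871 to 1.35 in the other libraries, so CPM stands higher against TPM in library 6. Coverage was put on the TPM scale with the library's median ratio of TPM to coverage. The script was tested on simulated data. Alternatives used limma 3.58.1 and DESeq2 1.42.0. The 10 members were always named; from each other list the text names up to 4 genes past the threshold by adjusted p, or up to 2 by mean CPM, and genes at 0, neighbours or ratios chosen after their values were seen. TTN, LDB3, LAMA2, THY1, SHANK3, S100B and MSLN had no matching symbol. Members and lists were chosen with earlier results of these data known. Sequences were not used here.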

Additional observations from a re-analysis of the deposited data

How the results depend on the processing

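RGS5 and ITGA8 stayed lower in DOCA than in control in edgeR under every scaling, filter and left-out library, and in DESeq2 and limma on TPM. Without library 6 or 7 the DOCA group is 1 library, assumed to vary like the other groups, so those fits say little about stability. With quality weights per library 0 members passed in either comparison with DOCA, where 161 genes passed against control and 5 for DOCA plus JK07 against DOCA; the cause was not tested. On log2(TPM + 1) and log2(TPM + 0.1) with a filter, 4 members passed for DOCA against control, DCN and LUM being the others. For DOCA plus JK07 against DOCA, DESeq2 called 5049 genes and limma on unfiltered log2(TPM + 1) 5355, against 2930 in edgeR. Leaving out 1 library gave 2277 to 4455 genes and 1 to 2 members. For DOCA plus JK07 against control, DESeq2 called 116 genes, quality weights 8 and unfiltered log2(TPM + 1) 5, against 0. Upper quartile scaling moved the median log2 fold change of all genes for DOCA against control from -0.63 to -0.39, with 1523 genes higher and 2868 lower.

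Per cardiomyocyte TPM, leaving out 1 library moved the log2 difference of the fibroblast sum for DOCA against control between -1.41 and 0.41. With RYR2 alone as denominator, chosen after TTN was found to have no name in the files, the fibroblast difference was -1.0 for DOCA plus JK07 against DOCA and -1.30 against control, and the mural one -0.92 and -1.05; the planned pair of TTN and RYR2 was not run. Without PDGFRB the mural difference was -1.0 for DOCA against control and 0.72 for DOCA plus JK07 against DOCA. No paired analysis was possible because the groups share no replicate numbers. Outside ribosomal and mitochondrial counts the 2 DOCA libraries were the shallowest (by total counts library 6, with 76.5 M, was not), so depth limits what can be read from genes at 0.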
